A study of Mus musculus with 4 samples.

Results

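The Src inhibitor PP2 was set against its vehicle, dimethyl sulphoxide (DMSO), in dermal cells from the abdominal skin of pregnant mice. Of the 18193 genes that the arrays measured with probe sets of a single gene symbol, 13164 were called present on at least 1 of the 2 arrays and entered the comparison, with 23627 probe sets, and 13585 were present on at least 1 of the 4 arrays of the study. The mice were female C57BL/6 adults aged 10 weeks and were taken at 15 days post-coitus (dpc) according to the sample titles and the text of the study, while the sample descriptions give 16 dpc. Each received intradermal injections of 100 µl, 2 a day for 4 days from 12 dpc, which held either 1 mM PP2 in one group or DMSO in the other. The other 2 arrays of the study held the abdominal dermis of virgin mice and the dorsal dermis of 15 dpc mice, both also injected with DMSO, and they are given below as levels only. The 4 arrays are called the PP2, vehicle, virgin and dorsal arrays.

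Each condition had 1 array. A ratio of 2 signals therefore has no error here, no test could be run, and the spread between mice is not known. The sources used here do not say whether the RNA of an array came from 1 mouse or from a pool. PP2 was injected into the skin as a whole, so a difference cannot be tied to Src in one kind of cell.

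Src family kinases are membrane-anchored tyrosine kinases that relay signals from integrins and growth factor receptors to the cytoskeleton and to transcription factors. PP2 competes with ATP in their catalytic site and is known to act on some other kinases as well. The dermis is built by fibroblasts that secrete collagens and proteoglycans, and it holds vessels, nerves, immune cells and the lower parts of hair follicles. In a growing follicle, the cells of the matrix make the hair shaft and the inner root sheath under the guidance of the dermal papilla, a cluster of specialised fibroblasts. Hair keratins and keratin-associated proteins form the shaft, and follicles at rest make little of either.

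The preparation was checked against markers of its cells. All 24 fibroblast genes of the list that the arrays measured were detected, *Vim*, which encodes vimentin, at signals of 29482 on the vehicle array and 24733 on the PP2 array. *Col1a2*, a chain of type I collagen that is counted in another list, had 25489 and 19808. The dermal label did not exclude epithelium. Of 29 keratinocyte genes, 28 were detected, and *Krt14*, the keratin of basal keratinocytes, had signals of 14877 and 10184. Both arrays thus held RNA of follicle or epidermal cells. Since these are bulk samples, fewer cells of a type and less RNA per cell cannot be told apart in anything that follows.

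The PP2 and vehicle arrays differed in control measures of RNA and array quality. Control transcripts are read by one probe set near each end, and the 3′ signal over the 5′ signal grows as RNA breaks or copies shorten. It was 5.84 for *Gapdh* on the PP2 array, 1.41 on the vehicle array, 2.51 on the virgin array and 2.97 on the dorsal array. For *Pcx* it was 15.6 on the PP2 array against 7.37 on the vehicle array, for *Actb* 2.70 against 2.03 and for *Tfrc* 1.94 against 1.60. Ribosomal 18S RNA gave 256 with PP2 and 12257 with vehicle by its 5′ probe set, and 1143 and 5411 by its 3′ probe set. The median of the 18 probe sets for spiked-in RNA, which is added to the sample, was 2158 against 4176. Their part in the differences below was not tested. The counts over all genes are therefore given as deposited and after quantile normalization, which forces the arrays to one distribution of signals. Counts of listed genes are as deposited unless said otherwise, and stand against 3.91% of all genes over 2-fold higher and 5.01% lower.

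Of the 13164 genes, 515 (3.91%) were over 2-fold higher on the PP2 array and 659 (5.01%) were over 2-fold lower, counting a gene by its brightest detected probe set and only when that was called present on the brighter array. After quantile normalization 658 (5%) were higher and 445 (3.38%) lower, so that the share of lower genes among those past 2-fold went from 56.1% to 40.3%. It was 48.6% with both arrays set to one median and 46.8% after centring along the signal with a lowess curve. The balance between the directions thus turned with the scaling, while most members did not: 500 of the higher and 422 of the lower genes were past 2-fold under all 4 scalings. The median log2 ratio of all genes was -0.0022 as deposited and 0.048 after quantile normalization. In all, 1174 genes (8.92%) were past 2-fold, and the other 5 pairs of the study's arrays had between 7.15% and 12.2%, so the distance between the PP2 and vehicle arrays lay inside that range.

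Where a gene was not called present on the dimmer array, its fold is written as "at least" and stands against the higher of its own signal there and the dimmest signal called present on that array, 6.57 on the vehicle and 3.96 on the PP2 array. The lower genes reached farther from the diagonal than the higher ones. Counted by the ratio of the 2 signals as deposited, not by these bounds, 45 genes were over 16-fold lower and 12 higher. Over 4-fold, 130 were lower and 111 higher. Such ratios can rest on signals below the dimmest present one. *Hoxd1*, at 24.2 on the PP2 array and 1.19, not present, on the vehicle array, had a log2 ratio of 4.35 but a bound of 3.68-fold. The 20 lowest genes that were present on both arrays and past 2-fold under all 4 scalings were 16 genes named as keratin-associated proteins, 3 predicted genes (*Gm11567*, *Gm10228* and *Gm11563*) and *Zic1*. Genes with several detected probe sets show how far one probe set speaks for a gene. Of 141 lower genes with several, 108 had every probe set lower and 47 had every one past 2-fold. Of 153 higher genes, 118 and 54 did so in their direction.

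**Figure D1:**
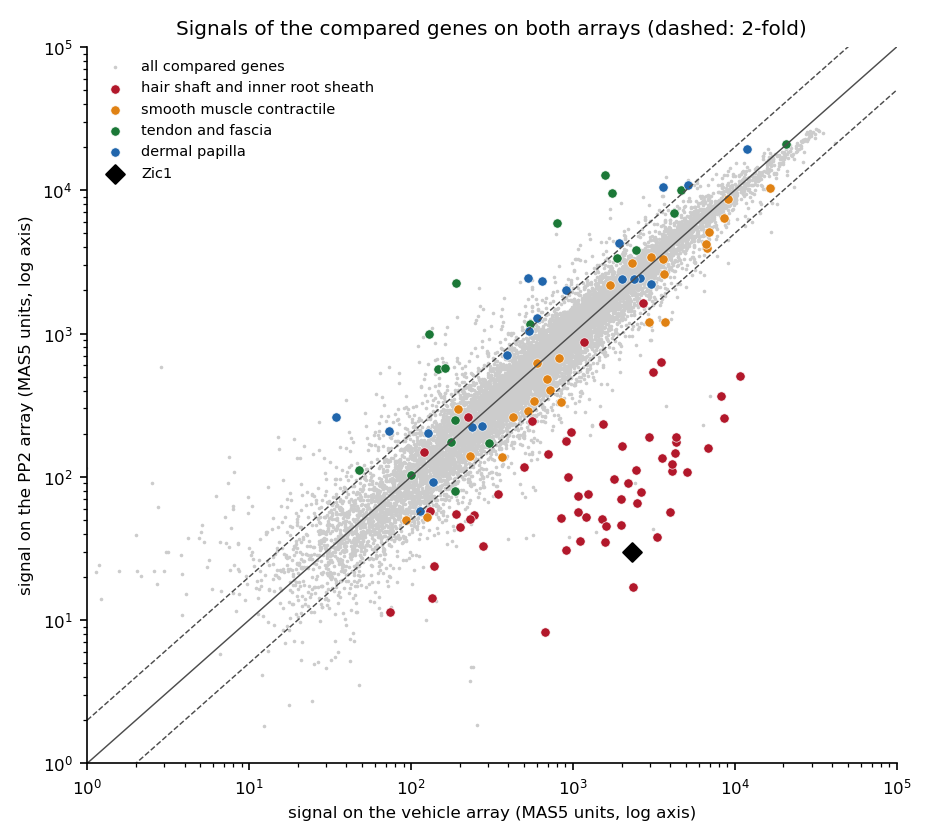
Signal of each of the 13164 compared genes on the vehicle array (horizontal) and the PP2 array (vertical), both on log axes in MAS5 units, with the diagonal and the 2-fold lines. Genes of the hair shaft and inner root sheath (red) and *Zic1* (black diamond, 2308 against 30.0) lie far below the diagonal, while genes of tendon and fascia (green) and of the dermal papilla (blue) lie mostly on or above it.

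**Figure D2:**
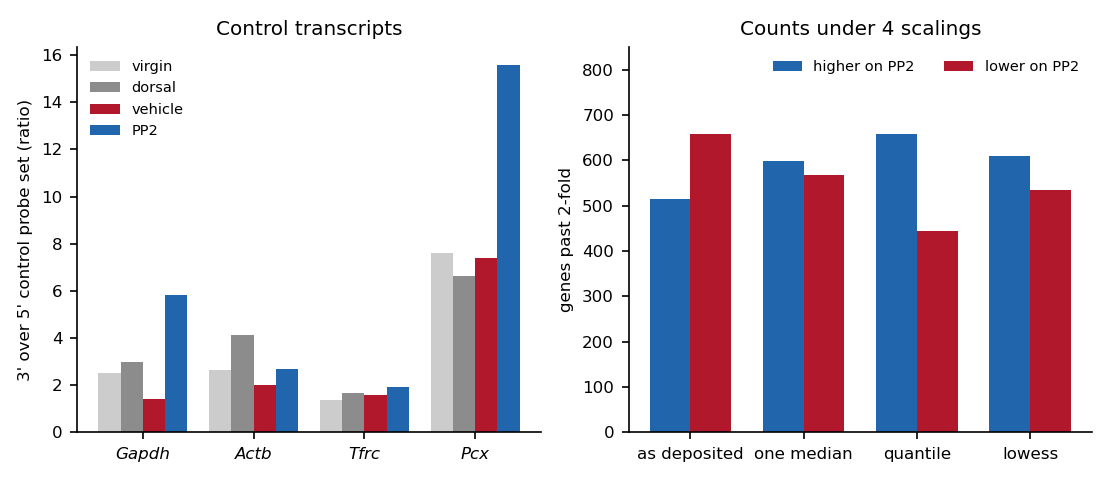
Left, 3′ signal over 5′ signal of 4 control transcripts on each of the 4 arrays, 5.84 for *Gapdh* and 15.6 for *Pcx* on the PP2 array. Right, number of genes over 2-fold higher (blue) or lower (red) on the PP2 array under 4 scalings, from 515 and 659 as deposited to 658 and 445 after quantile normalization.

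No detected transcript of the Src family kinases differed by over 2-fold by its brightest probe set. From here on, the signal on the vehicle array stands before that on the PP2 array, and the virgin array before the dorsal array, unless said otherwise. Of 29 detected Src family kinases, regulators and substrates, 0 were over 2-fold higher and 0 lower, and their median log2 ratio was -0.060, a sign that turned with the scaling. *Src* had a signal of 341 on the vehicle array and 606 on the PP2 array, 1.78-fold higher, with 609 on the virgin and 590.3 on the dorsal array. *Fyn* had 2018 and 2213, and *Yes1* 1594 and 1737. By their brightest probe sets these ubiquitous members of the family differed by less than *Src*, but 1 of the 4 probe sets of *Yes1* had 154 and 40.2. *Fgr*, a member of myeloid cells, had 133 and 94.0, and *Frk*, an epithelial relative, 214 and 207. *Csk*, the kinase that switches Src off by phosphorylating its tail, had 364 on the vehicle and 223 on the PP2 array. The substrates *Pxn* (paxillin), *Bcar1* (p130Cas) and *Cttn* (cortactin) lay within 1.15-fold by their brightest probe sets. Some dimmer ones differed by more, a probe set of *Pxn* being 1.77-fold lower, one of *Bcar1* 1.41-fold higher and one of *Cttn*, at 539.7 and not present on the PP2 array, at least 4.72-fold lower. An mRNA array does not measure the activity of a kinase.

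The transcripts farthest below the diagonal were those of the hair shaft. Keratin-associated proteins are small proteins rich in cysteine or in glycine and tyrosine that cross-link keratin filaments in the hair shaft. Of 38 such genes on the arrays, 33 were detected, 32 were over 2-fold lower on the PP2 array (31 under all 4 scalings) and 0 higher, against 5.01% and 3.91% of all genes. Their median log2 ratio was -4.62 as deposited and -4.44 after quantile normalization. Their signals summed to 99368 on the vehicle array and 4587 on the PP2 array, with 1603 on the virgin and 11433 on the dorsal array. The vehicle array, not the PP2 array, was the one that stood apart from the other 3.

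Members of the family differed widely in level on the vehicle array. *Krtap19-1* had 2349 on the vehicle array and 17.1 on the PP2 array, 138-fold lower, with 3.46 (not present) on the virgin and 156 on the dorsal array, and at least 5.44-fold lower by its second probe set. *Krtap16-3* had 6817 and 159.7, 42.7-fold lower. Its second probe set, at 2623 and 53.8, differed by a like amount. The brightest member, *Krtap8-1*, had 10723 and 509, 21.0-fold lower, *Krtap22-2* 8629.8 and 256, 33.7-fold lower, and *Krtap4-1* 4270.0 and 146, 29.2-fold lower. *Krtap26-1*, present on the vehicle array alone, was at least 2.27-fold lower as deposited and short of 2-fold after quantile normalization. The exception was *Krtap17-1*, with 1178 on the vehicle and 871 on the PP2 array, and 1192 on the dorsal array. Probe sets of near-identical members can read each other's transcripts, and 3 of the 33 are marked by their name as shared between transcripts, so the members are not independent measurements.

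These genes sit in clusters. By the RefSeq gene table of GRCm38.p6, 24 of the 33 had another keratin-associated protein gene as the next protein-coding gene on at least one side. The 19 on chromosome 16 had a median log2 ratio of -4.82 and the 10 on chromosome 11, *Krtap17-1* among them, -4.79. Their promoters share a short feature. The letters TATAAA, searched on both strands between 250 bases before and 50 bases after the gene's start, were found in 25 of 31 keratin-associated protein genes with a window (80.6%), in 4 of 5 hair keratin genes, and in 15.7% of all 27025 genes with one. The match is a description of the letters, and the motif was chosen after the values were seen. The letters were not found in the windows of *Krtap19-1*, *Krtap19-2*, *Krtap19-3*, *Krtap15* and *Krtap14*, which had the largest ratios of the family among genes present on both arrays, from 45.3-fold to 138-fold lower. The 250 bases before the start of 3 bright genes that were over 16-fold lower were chosen among those that hold the motif, to show where it lies, from RefSeq on GRCm38.p6, all on the minus strand and written 5′ to 3′, with TATAAA or its reverse complement in capitals: *Krtap16-3* at chr16:88962874-88963123, *Krtap22-2* at chr16:89010760-89011009 and *Krtap4-1* at chr11:99628240-99628489.
Krtap16-3: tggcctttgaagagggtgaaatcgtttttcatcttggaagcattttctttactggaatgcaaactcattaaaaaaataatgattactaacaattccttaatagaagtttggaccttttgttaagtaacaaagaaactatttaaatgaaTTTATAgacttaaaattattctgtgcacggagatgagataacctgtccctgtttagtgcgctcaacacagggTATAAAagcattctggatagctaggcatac
Krtap22-2: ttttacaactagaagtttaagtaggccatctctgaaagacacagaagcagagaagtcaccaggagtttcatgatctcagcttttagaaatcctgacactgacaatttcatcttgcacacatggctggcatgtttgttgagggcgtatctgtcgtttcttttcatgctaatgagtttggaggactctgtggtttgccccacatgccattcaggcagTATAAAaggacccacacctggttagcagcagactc
Krtap4-1: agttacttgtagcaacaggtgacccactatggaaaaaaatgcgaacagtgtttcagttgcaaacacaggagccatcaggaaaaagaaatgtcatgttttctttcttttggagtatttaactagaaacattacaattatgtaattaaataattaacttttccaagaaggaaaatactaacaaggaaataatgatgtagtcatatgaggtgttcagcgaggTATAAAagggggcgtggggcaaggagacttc
Counted from the start, a copy began at position -30 in *Krtap16-3*, -35 in *Krtap22-2* and -31 in *Krtap4-1*, and *Krtap16-3* held a further copy at -102 on the other strand.

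The keratins of the shaft were low with the proteins that bind them. Of 10 detected hair keratin genes, 10 were over 2-fold lower on the PP2 array, under all 4 scalings, with a median log2 ratio of -4.50 as deposited and -4.20 after quantile normalization. *Krt33a*, a type I hair keratin and the brightest member on the vehicle array, had 2473 there and 112 on the PP2 array, 22.2-fold lower. On the virgin and dorsal arrays it was not called present. *Krt83*, *Krt34*, *Krt86*, *Krt33b*, *Krt35* and *Krt31* were present on the vehicle array alone among all 4, at signals from 675 for *Krt83* to 1602 for *Krt34*. Their bounds on the PP2 array ran from at least 16.3-fold lower for *Krt31* to at least 81.1-fold lower for *Krt83*. *Krt81*, with 1543 and 233, and *Krt32*, with 561 and 247, were present on all 4 arrays. *Krt36* was dimmer, at 189 on the vehicle array and not present on the others, at least 3.43-fold lower with PP2.

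The inner root sheath, the tube of cells that moulds the growing shaft, was low as well, but less so. Of 14 detected genes, 11 were over 2-fold lower on the PP2 array and 0 higher, against 5.01% and 3.91% of all genes. Their median log2 ratio was -2.32. *Tchh*, which encodes trichohyalin, had 3134 on the vehicle and 540.4 on the PP2 array, 5.80-fold lower, with 129 on the virgin and 375 on the dorsal array. *Krt25* had 3524 and 635, 5.55-fold lower, and *Krt73* 939.8 and 99.1, 9.49-fold lower. *Krt25*, *Krt26*, *Krt27*, *Krt28*, *Krt71*, *Krt72* and *Krt73* are the keratins of this sheath, and all of them were past 2-fold. *Gata3*, a transcription factor of the sheath that other skin cells also use, had 2708 and 1625. *Tgm3* and *Tgm1*, transglutaminases shared with the epidermis, were higher on the PP2 array, by 1.17-fold and 1.24-fold.

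The regulators of hair growth did not move as one. Of 14 detected, 2 were over 2-fold lower, 2 higher, and the median log2 ratio was -0.21. *Foxn1*, the factor whose loss makes mice nude because shaft cells do not differentiate, had 189 on the vehicle and 33.1 on the PP2 array, 5.71-fold lower, with 62.8 on the virgin and 168 on the dorsal array. *Foxq1*, a factor of the hair medulla, was 2.08-fold lower (355 and 171), short of 2-fold after quantile normalization. *Hoxc13*, which drives hair keratin genes, had 590.4 and 397, and *Msx2* 296 and 203, neither past 2-fold. *Lef1*, the Wnt effector of hair precursor cells and papilla, was higher on the PP2 array at 1558 against 556, 2.80-fold, and its second probe set was also higher (322 against 111). Genes of melanocytes, which load pigment into the shaft, gave 1 of 12 lower. That gene was *Pmel*, at 361 on the vehicle array and not present on the PP2 array, at least 2.28-fold lower as deposited and short of 2-fold after quantile normalization.

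Epithelial markers were lower on the PP2 array by less than the hair genes. Of 28 detected keratinocyte genes, 6 were over 2-fold lower on the PP2 array (4 under all 4 scalings) and 1 higher, with a median log2 ratio of -0.58. Their summed signal was 201099 on the vehicle array and 128062 on the PP2 array, with 150243 on the virgin and 257212 on the dorsal array. *Krt5*, the partner of *Krt14* in basal cells, had 16946 and 8098, 2.09-fold lower as deposited and short of 2-fold after lowess centring. *Krt77*, a keratin of the sweat gland duct and of suprabasal epidermis, was 3.28-fold lower (16689 and 5088), and *Krt1*, of differentiating epidermis, 2.26-fold lower (6091 and 2698). The exception was *Hrnr*, a gene of the cornified layer, at 74.1 on the PP2 and 24.5 on the vehicle array. Keratinocyte markers were thus lower on the PP2 array along with the hair genes, and their part in the hair gene differences was not tested. The keratinocyte median was nearer to 0 than those of the shaft and sheath genes, by counts 6 of 28 against 32 of 33.

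**Figure D3:**
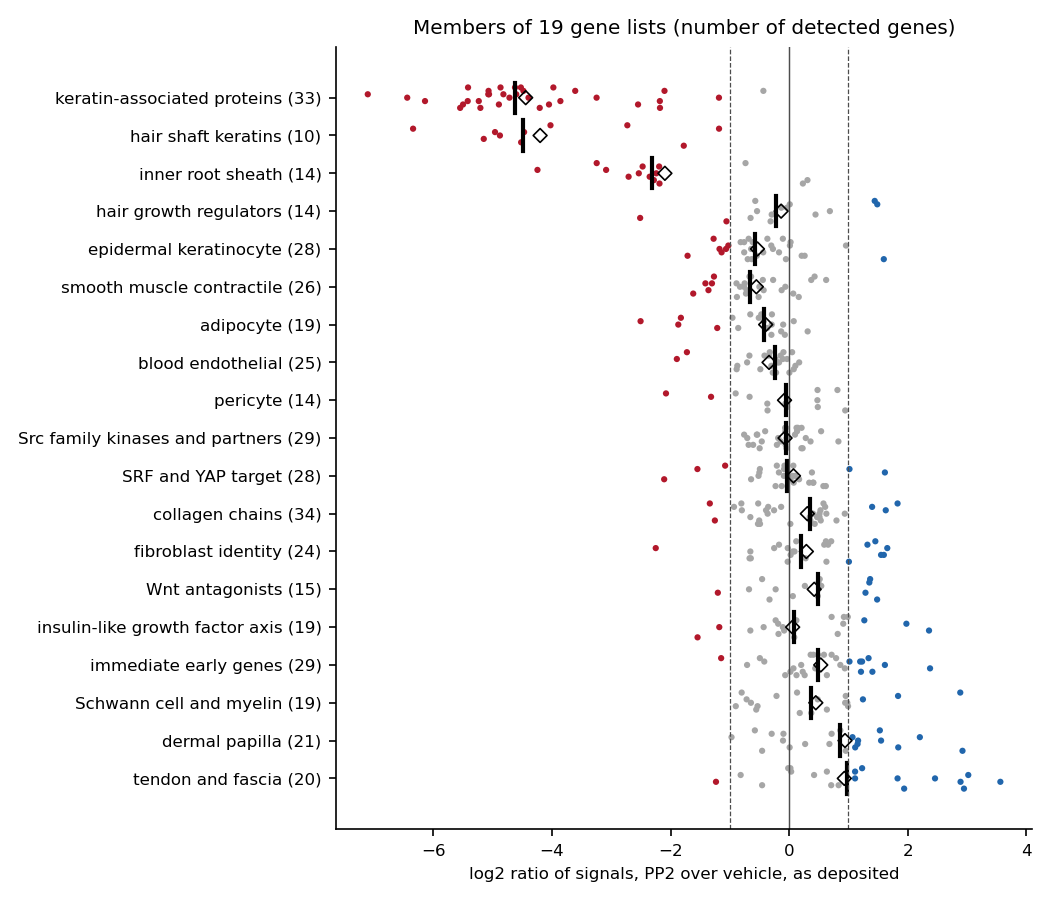
Log2 ratio of the PP2 over the vehicle array, as deposited, for each detected member (points) of 19 gene lists, with the list's median as deposited (black bar) and after quantile normalization (open diamond). Blue and red points are over 2-fold higher and lower with a present call on the brighter array, grey points are not. Medians run from -4.62 for keratin-associated proteins to 0.97 for tendon and fascia genes.

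Genes of the dermal papilla lay on the other side of the diagonal from those of the hair it directs. Of 21 detected, 9 were over 2-fold higher on the PP2 array, under all 4 scalings, and 0 lower, against 3.91% and 5.01% of all genes, with a median log2 ratio of 0.86 as deposited and 0.94 after quantile normalization. *Sox2*, a factor of the papillae of guard and awl hairs, had 527 on the vehicle and 2425 on the PP2 array, 4.61-fold higher, with 832 on the virgin and 3635 on the dorsal array. *Fgf7*, a growth factor for keratinocytes, had 648 and 2319, 3.58-fold higher, with 1905 and 1815 on the virgin and dorsal arrays. Its dimmer probe set was 1.46-fold higher only. *Rspo2*, an R-spondin that strengthens Wnt signals, was not present on the vehicle array, had 263 on the PP2 array and was at least 7.58-fold higher there, with 327 on the virgin array and 157 on the dorsal array. *Crabp1*, a retinoic acid-binding protein, had 3586 and 10496, and 18584 on the virgin array. *Hhip*, a decoy for Hedgehog ligands, had 72.9 and 210.3. For *Fgf7*, *Rspo2*, *Crabp1* and *Hhip*, as for *Trps1*, *Vcan* and *Lepr*, the vehicle array was below the virgin array too, by the brightest probe set. The dimmer probe sets of *Lepr* went the other way, with 2435 and 551 on the vehicle array against 2227 and 473 on the virgin array. Several of these genes are also made by other fibroblasts, and which cells made the transcripts, those of *Sox2* included, was not measured. *Corin* and *Alpl*, which encode proteins long used to mark the papilla, had 114 against 58.0 and 137 against 92.1, lower on the PP2 array by less than 2-fold.

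Among the gene lists, which were chosen with earlier results of these data known, that of tendon, fascia and other dense connective tissue was most often higher. Of 20 detected, 10 were over 2-fold higher on the PP2 array, under all 4 scalings, and 1 lower, against 3.91% and 5.01% of all genes. Their median log2 ratio was 0.97 as deposited and 0.93 after quantile normalization. *Kera*, which encodes the proteoglycan keratocan, was the gene with the largest ratio of all those present on both arrays, at 191 and 2251, 11.8-fold, with 191 on the virgin and 628 on the dorsal array. *Tnmd*, which encodes tenomodulin, a membrane protein of tendon cells, had 800.3 and 5931, 7.41-fold higher, with 629 and 3399. *Fmod*, which encodes fibromodulin, a proteoglycan that shapes collagen fibrils, had 1734 and 9534, with 1614 on the virgin and 18858 on the dorsal array. All 5 of its probe sets were higher on the PP2 array, by 2.55-fold to 5.50-fold. *Coch*, which encodes the matrix protein cochlin, had 1574 and 12768, 8.11-fold higher, with 1561 and 9545. On these 4 genes the vehicle and virgin arrays had like signals, and the dorsal array had higher ones. *Mkx*, a homeobox factor of tendon, had 148 and 567, and *Col11a1*, a fibril-nucleating collagen, 162 and 576. *Edil3*, which encodes an integrin-binding matrix protein, had 129 and 994, 7.71-fold higher, and all 3 of its probe sets were higher. *Tnc* (tenascin-C), *Cilp* and *Prg4* (lubricin) were 2.16-fold, 2.16-fold and 2.35-fold higher. The tendon factor *Scx* differed by 1.02-fold (100.2 and 103), and *Comp*, which encodes a cartilage and tendon matrix protein, was lower, 187 against 79.3, short of 2-fold after quantile normalization. How much fascia was carried into each preparation was not measured.

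The main collagens differed by less than 2-fold, and some fibroblast markers were higher on the PP2 array. Of 34 detected collagen chains, 3 were over 2-fold higher, under all 4 scalings, and 2 lower, against 3.91% and 5.01% of all genes. Their median log2 ratio was 0.35. *Col1a1* had 11529.6 on the vehicle and 6630.2 on the PP2 array, 1.74-fold lower, *Col1a2* 25489 and 19808, and *Col3a1* 30307 and 25395. These chains make the bulk of dermal fibrils. The chains past 2-fold higher were minor ones, *Col11a1*, *Col13a1* (506 and 1563) and *Col12a1* (1322 and 3484, its dimmer probe set being 1.25-fold higher). The lower ones, *Col25a1* (46.5 and 18.4) and *Col9a3* (68.7 and 28.8), were dim and short of 2-fold after quantile normalization. Of 24 fibroblast genes, 6 were higher and 1 lower, with a median log2 ratio of 0.20. *Pdgfra*, the receptor by which dermal fibroblasts are usually sorted, had 1778 and 4439, 2.50-fold higher, with 2398 on the virgin and 2285 on the dorsal array. Its dimmest probe set, called marginal on the vehicle array, had 110.1 and 83.0. *Fap*, which encodes fibroblast activation protein, had 989 and 3113, and *Twist1*, a mesenchymal factor, 1021 and 2794. Both were about as high on the virgin array, at 2979 and 2948. The other higher ones were *Crabp1*, given above, *Prdm1* (Blimp1), a factor of upper dermal lineages, at 358 and 1081, and *Thy1* (CD90), at 4725 and 9496, short of 2-fold after lowess centring. *Clec3b*, which encodes tetranectin, was present on the vehicle array at 894 and not on the PP2 array, at least 4.76-fold lower. *Vim* and *Pdgfrb*, general mesenchymal markers, lay within 1.19-fold.

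Most smooth muscle genes were somewhat lower on the PP2 array. The study followed cells with α-smooth muscle actin and vimentin in the expanding skin, and reported that PP2 injection reduced their population in the dermis. That is a measure of cells, not of RNA. The gene of this actin, *Acta2*, had 16453 on the vehicle and 10345 on the PP2 array, 1.59-fold lower, with 14744 on the virgin and 7569 on the dorsal array. Its dimmer probe set had 274 and 117, 2.34-fold lower. Of 26 detected contractile genes, 5 were over 2-fold lower (4 under all 4 scalings), 0 were higher, against 5.01% and 3.91% of all genes, and 21 had a ratio below 1, with a median log2 ratio of -0.66. After quantile normalization 4 were lower, against 3.38% of all genes. *Myh11*, the smooth muscle myosin, had 3706 and 1207, 3.07-fold lower, with 1923 and 1117 on the virgin and dorsal arrays. *Myocd*, which encodes myocardin, the coactivator that binds serum response factor (SRF) and turns these genes on, had 364 and 137, 2.66-fold lower. *Pln*, *Aoc3* and *Hspb7* were 2.57-fold, 2.47-fold and 2.41-fold lower. *Tagln* (SM22) was 1.68-fold lower, 6695 against 3976, and *Des* (desmin) had 598 and 627. Pericytes, which share vessels with smooth muscle, had 2 of 14 genes lower (1 after quantile normalization) and a median of -0.049, whose sign turned with the scaling. Their marker *Rgs5* had 16275 and 12604, while 1 of its 4 probe sets had 1895 and 259.

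SRF binds the CArG box, which was looked for on both strands of the same promoter windows. It was found in 4 of 20 contractile genes with a window (20%), in 4 of 20 genes of a list of SRF and YAP targets and in 1.81% of all genes with one. The contractile genes that hold it were *Fhl1*, *Ldb3*, *Myl6* and *Myl9*, none of them over 2-fold lower. The windows of *Acta2*, *Pln* and *Hspb7* did not hold it, and *Myh11*, *Myocd* and *Aoc3* had no window. One that holds it is *Myl9*, the regulatory light chain of smooth muscle myosin, whose signal was 6602 on the vehicle and 4229.7 on the PP2 array, 1.56-fold lower. The 250 bases before its start, on the plus strand at chr2:156775214-156775463 of GRCm38.p6, show one such promoter, from RefSeq, with the box in capitals.
Myl9: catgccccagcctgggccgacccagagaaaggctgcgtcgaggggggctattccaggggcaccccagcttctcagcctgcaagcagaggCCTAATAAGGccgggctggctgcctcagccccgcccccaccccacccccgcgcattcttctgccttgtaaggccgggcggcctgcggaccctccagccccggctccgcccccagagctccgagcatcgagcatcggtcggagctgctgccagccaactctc
The wider list of SRF and YAP targets held members on both sides. Of 28 detected, 2 were over 2-fold higher, 3 lower, and the median log2 ratio was -0.030. *Ccn2* and *Ccn1*, both used as readouts of YAP, had 2791 against 3641 and 5863 against 11863, higher on the PP2 array, *Ccn1* by 2.02-fold. The other 3 probe sets of *Ccn1* were 1.34-fold to 1.53-fold higher, short of 2-fold. *Ankrd1*, another such readout, was present on the vehicle array alone, at 39.6, and at least 4.31-fold lower. Of 24 detected genes of focal adhesions and the cytoskeleton, 1 was over 2-fold higher and 3 lower, with a median log2 ratio of -0.037. The higher one was *Tns3*, which encodes a tensin, at 2052 and 4265, 2.08-fold, short of 2-fold after quantile normalization. The lower ones, *Itgb1* (integrin β1), *Tln1* (talin) and *Flna* (filamin A), were 2.30-fold, 3.21-fold and 2.11-fold lower by their brightest probe sets, while another probe set of *Tln1* was 1.46-fold higher.

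The secreted proteins that the study took forward differed from each other by their brightest probe sets. The study had chosen both by microarray from these conditions, as over 2-fold higher in abdominal than in virgin, PP2-injected and dorsal dermis. A lower signal of either on the PP2 array is thus part of how it was chosen, not independent support. *Igfbp2*, which encodes a binding protein of insulin-like growth factors, had 9084 on the vehicle array and 3113 on the PP2 array, 2.92-fold lower, and past 2-fold under all 4 scalings. Its signal was 2023 on the virgin and 646 on the dorsal array, so the PP2 array lay between the vehicle array and those. *Sfrp1*, which encodes a soluble Wnt antagonist, had 851 and 888 by its brightest probe set, 1.04-fold higher, with 857 on the virgin and 992 on the dorsal array. Its 5 probe sets disagreed. A pair of dimmer ones, present on both arrays, had 235 and 250 on the vehicle array and 73.4 and 64.9 on the PP2 array. Their log2 ratios were -1.68 and -1.95, past 2-fold under all 4 scalings. They had 38.6 (not present) and 150 on the virgin array, and 190 and 99.3 on the dorsal array. The other 3 lay within 1.5-fold, and a probe set among them, at 664, was not present on the vehicle array.

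Other genes of the insulin-like growth factor axis included differences as large. Of 19 detected genes, *Igfbp2* included, 3 were over 2-fold higher (6 after quantile normalization) and 2 lower, with a median log2 ratio of 0.085. *Igf1* had 2529 and 4794, 1.90-fold higher by its brightest probe set, and its other 3, present on both arrays, were 3.24-fold, 3.65-fold and 2.90-fold higher. *Igf2* had 882 and 1658, 1.88-fold higher. The receptor *Igf1r* had 1987 and 2162, and the binding proteins *Igfbp4*, *Igfbp5* and *Igfbp7* lay within 1.17-fold by their brightest probe sets, although 2 dimmer ones of *Igfbp4* were 2.64-fold and 3.32-fold lower on the PP2 array. *Pappa2* and *Pappa* encode proteases that free the growth factors by cutting binding proteins. *Pappa2* had 1263 and 4969.6, 3.93-fold higher, with 4306 on the virgin and 3822 on the dorsal array, and *Pappa* 418 and 1005. The stanniocalcins, inhibitors of these proteases, parted. *Stc2* had 261 and 1336, 5.13-fold higher, with 2993 and 1663, and all 3 of its probe sets were higher. *Stc1* had 1615 and 713, 2.26-fold lower, with 468 and 459.

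Of 15 detected Wnt antagonists, *Sfrp1* included, 4 were over 2-fold higher on the PP2 array and 1 lower, with a median log2 ratio of 0.48. *Dkk2*, which blocks the co-receptors Lrp5 and Lrp6, had 3534 and 9102, 2.58-fold higher, with 10848 on the virgin and 7085 on the dorsal array. *Sfrp2* had 207 and 578, *Dkk3* 939 and 2396 by the brighter of 2 probe sets, and *Notum*, an enzyme that removes the lipid from Wnt proteins, 356 and 869. They were 2.80-fold, 2.55-fold and 2.44-fold higher, and the dimmer probe set of *Dkk3* was 1.36-fold higher. The lower one, *Sost*, was dim, at 38.5 and not present on the PP2 array, and short of 2-fold after quantile normalization. Of 11 Wnt ligands, 3 were lower and 0 higher, and 1 was lower under all 4 scalings. That was *Wnt7b*, an epidermal ligand, with 359 on the vehicle array and not present on the PP2 array, at least 2.61-fold lower. Of 17 Wnt target genes, 4 were higher (*Lef1*, *Notum*, *Twist1* and *Bambi*) and 1 lower. The lower one was *Rnf43*, a ligase that removes Wnt receptors, at 217 and 48.9, 4.43-fold lower.

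Bone morphogenetic proteins (BMP) and fibroblast growth factors had a few members each that were higher on the PP2 array. *Bmp4* had 1597 and 4338, 2.72-fold higher, *Bmp2* 1597 and 3773, 2.36-fold higher, and *Bmp7* 685 and 1506, 2.20-fold higher. On the virgin array they had 3103, 3336 and 1367. Of 22 detected BMP genes these were the 3 higher ones, and 1, *Bmp8a*, was lower, against 3.91% and 5.01% of all genes. Of 18 genes of the fibroblast growth factor family, 3 were higher, *Fgf7*, *Fgf14* and the receptor *Fgfr1* (2084 and 5213, with another probe set at 184 and 102), and 0 lower. Of 22 genes of the transforming growth factor-β family 1 was past 2-fold, *Tgfb2*, at 528 and 1087, against 8.92% of all genes.

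*Zic1*, a zinc-finger factor that patterns the embryo and is used in adult stroma of some body regions, had 2308 on the vehicle array and 30.0 on the PP2 array, 76.8-fold lower, with 34.3 on the virgin and 85.8 on the dorsal array. Its second probe set had 388 on the vehicle array and was not present on the PP2 array. Only the vehicle array was high. The genes that record body position did not follow it. Of 39 detected Zic, Hox, T-box and related genes, 7 were over 2-fold higher and 1, *Zic1*, lower, with a median log2 ratio of 0.20. The higher ones were *Hoxc10* (104 and 307), *Tbx18* (216 and 597), *Tbx15* (638 and 1421), *Hoxa10*, *Hoxd1*, *Prrx2* and *Prrx1*, the last short of 2-fold after quantile normalization. *Tbx3*, the factor that the study followed in the epidermis, had 719 and 1198 in these dermal preparations, 1.67-fold higher by its brightest probe set. Its other 2 probe sets were 1.23-fold higher and, at 34.2 and 244, 7.14-fold higher. The study itself reported that PP2 injection lowered *Tbx3* mRNA in abdominal skin and the number of basal epidermal cells with Tbx3 protein. Those are measures of skin and of basal epidermis, not of dermal cells.

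**Figure D4:**
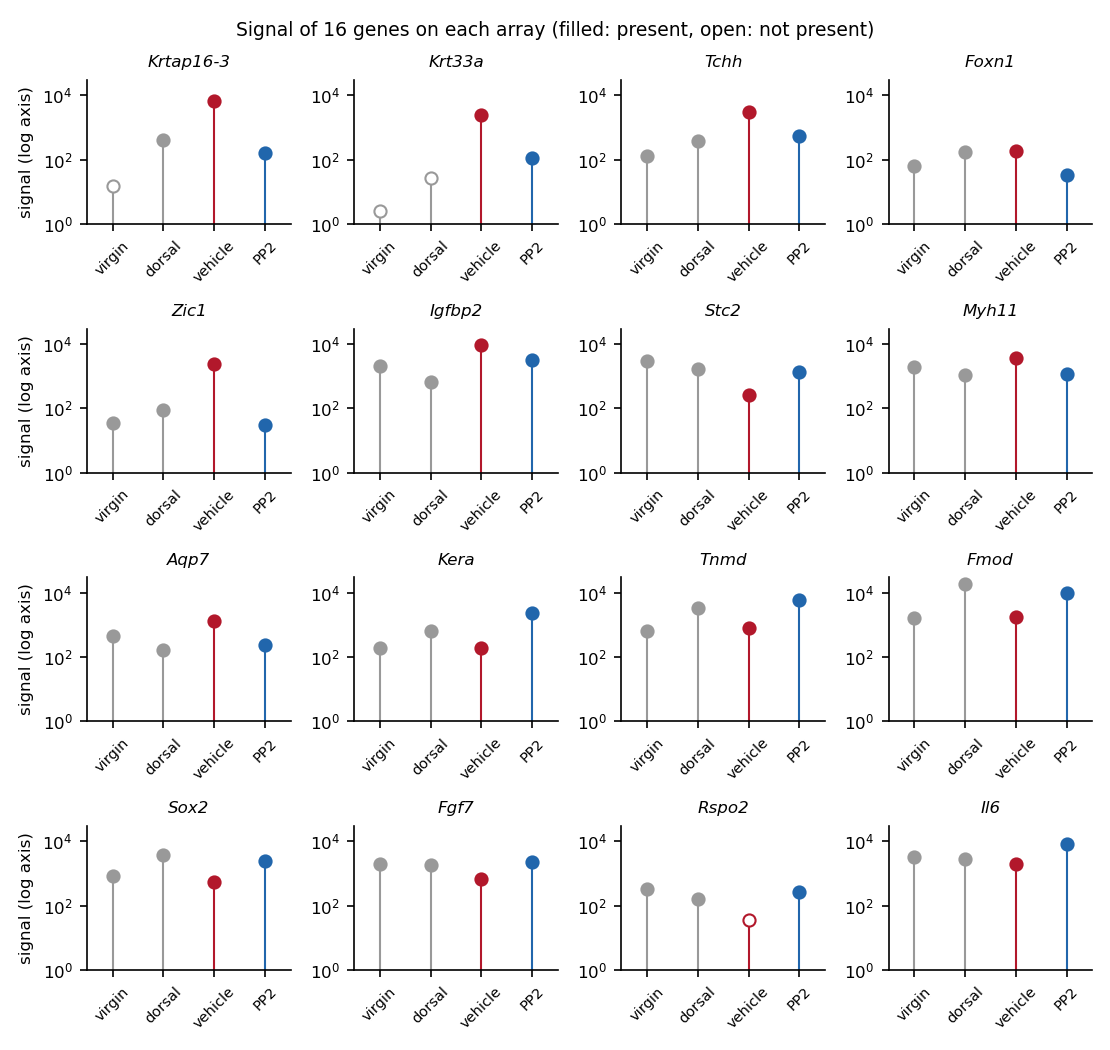
Signal (log axis) of 16 genes on the virgin, dorsal, vehicle and PP2 arrays, 1 array each, filled where the probe set was called present and open where it was not. *Krtap16-3*, *Krt33a*, *Tchh* and *Zic1* are high on the vehicle array alone, *Igfbp2* is highest there, and *Kera*, *Tnmd* and *Fmod* are higher on the PP2 and dorsal arrays than on the other 2.

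Adipocyte genes were lower on the PP2 array in part. Of 19 detected, 4 were over 2-fold lower (3 under all 4 scalings) and 0 higher, against 5.01% and 3.91% of all genes. Their median log2 ratio was -0.43. *Aqp7*, the glycerol channel of fat cells, had 1306 and 229.9, 5.68-fold lower, with 457 on the virgin and 164 on the dorsal array. *Adipoq*, which encodes adiponectin, had 850.5 and 239.8, and *Car3* 1633 and 447, 3.55-fold and 3.66-fold lower. *Fabp4* had 41761 and 21517, 1.94-fold lower by its brightest probe set, and its other 3 were 1.60-fold, 3.41-fold and 3.67-fold lower. *Lpl*, lipoprotein lipase, was 1.24-fold higher. The fat below the skin was cut away by hand before the cells were released, and what was left of it was not measured.

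Genes of blood vessel endothelium had a median log2 ratio of -0.23. Of 25 detected, 2 were over 2-fold lower and 0 higher, against 5.01% and 3.91% of all genes. They were *Pecam1* (CD31), at 2994 and 906, and the receptor *Tie1*, at 354 and 95.2. *Cdh5*, which encodes the cadherin that defines these cells, had 4659 and 3967, and *Vwf* 4114 and 4624. The markers of one cell type thus differed by unequal amounts. In lymphatic vessels *Prox1*, their master factor, was 3.62-fold lower (216 and 59.6) and the receptor *Lyve1* 2.28-fold higher (542 and 1236). Schwann cell genes had 3 of 19 over 2-fold higher and 0 lower, against 3.91% and 5.01% of all genes, and 7 had a ratio below 1. Their median log2 ratio was 0.37, while their summed signal was lower on the PP2 array, 83169.5 on the vehicle and 76638.5 on the PP2 array. *Fabp7* had 110.0 and 813, 7.39-fold higher, *Cdh19* 1277 and 4558, and *S100b* 1527 and 3616. All 3 are markers of Schwann cells or their precursors, and all were higher still on the dorsal array, at 892, 5231 and 4306.

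Immune genes differed by kind. Of 18 detected macrophage genes, 0 were over 2-fold higher and 2 lower, *Fcgr1* and *Gpnmb*, neither of them under all 4 scalings. *Csf1r*, the receptor that macrophages need to survive, had 942 and 645. Of 22 chemokines, 7 were higher on the PP2 array and 0 lower, against 3.91% and 5.01% of all genes. *Cxcl1*, which draws neutrophils, had 1022 and 2735, 2.68-fold higher, *Ccl2*, which draws monocytes, 79.7 and 274, 3.43-fold higher, and the interferon-driven *Cxcl10* 194 and 680.3, 3.51-fold higher. *Il6*, a cytokine of acute inflammation that stromal cells make, had 1978 and 8093, 4.09-fold higher, with 3127 on the virgin and 2897 on the dorsal array. *Il1rn*, which encodes the antagonist of the interleukin-1 receptor, was 2.78-fold lower. Immediate early genes, which cells switch on quickly after a stimulus or under stress, were counted beside them. Of 29 detected, 8 were higher and 1 lower, against 3.91% and 5.01% of all genes, and the median log2 ratio was 0.48. *Nr4a3* had 163 and 845, 5.19-fold higher, *Gadd45b* 2961 and 7831 by the first of 3 unequal probe sets, and *Fosb* 2794 and 6549. *Fos*, *Jun* and *Junb*, the core of the response, were lower by 1.41-fold, 1.34-fold and 1.64-fold, although the dimmer probe set of *Jun* was 1.98-fold higher. The summed signal of the list was 342388 on the virgin, 318246 on the dorsal, 213367 on the vehicle and 252388 on the PP2 array. Its part in the cytokine differences was not tested.

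Housekeeping processes and proliferation showed little. Of 40 detected cell cycle genes, 0 were over 2-fold higher and 1, *Mybl2*, lower. *Mki67*, the proliferation marker, had 777 and 719.9, and *Top2a* 579 and 534 by its brighter probe set, the other being 2.90-fold lower. The study reported fewer Ki67-positive basal cells in the abdominal epidermis after PP2. That is a count of epidermal cells, while these arrays read bulk RNA of dermal preparations. Of 21 cholesterol synthesis genes 0 were past 2-fold in either direction. Of 72 genes of oxidative phosphorylation 1 was higher, *Atp5md*, and of 44 ribosomal protein genes 1 was lower, *Rpl27a* (1192 and 283). The median of the ribosomal protein genes was -0.23 as deposited and 0.021 after quantile normalization.

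Of the genes called present on one of the 2 arrays only, 761 were present on the PP2 array and 505 on the vehicle array. The largest bound on the PP2 side was that of *S100a7l2*, a member of the S100 family of calcium-binding proteins, with 582 on the PP2 array and no present call on the other 3. The bound against the vehicle array was at least 88.5-fold. The next were *Galr2*, a receptor of the neuropeptide galanin, at 138 and at least 18.5-fold, and *Brinp3*, at 115 and at least 17.5-fold. On the vehicle side, besides hair genes, *Cenpb*, which encodes a centromere protein, had 255 on the vehicle array, 238 on the virgin and 284 on the dorsal array and was not present on the PP2 array, at least 64.3-fold lower. *Sprr2h*, *Calhm4* and *Adh6b* were present on the vehicle array alone among all 4, at 232, 243 and 236. None of these bounds has a replicate. Of the remaining genes with the largest ratios among those present on both arrays, *Slc14a1*, a urea transporter, had 64.0 and 528, 8.26-fold higher, with 460.0 and 736 on the virgin and dorsal arrays. *Serpinb6c*, a protease inhibitor, had 118 and 954, and *Npy*, which encodes neuropeptide Y, 167 and 1105, 6.62-fold higher.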

How the data were processed

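RNA of dermal cells was hybridised to 4 Affymetrix Mouse430_2 arrays, 1 per condition. The cells had been released from scraped, fat-free skin by dispase and then by collagenases and hyaluronidase. The deposited intensity values are MAS5 signals, scaled by the authors to one trimmed mean per array, with a detection call of present, marginal or absent for each probe set. The submitters' processing notes name Affymetrix Expression Console version 1. Of 45101 probe sets, 64 controls, 932 with several gene symbols and 9160 with none were left out, and 34741 of the 34945 that remained had an Entrez number in the current mouse gene table.

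Among a gene's probe sets present on at least 1 of the 2 arrays, the one with the highest mean of log2 signals represented it. Past 2-fold means a ratio above 2 with a present call on the brighter array. Where a gene was not present on the dimmer array, the fold is a bound against the higher of its own signal there and the dimmest signal called present on that array. Alternatives were scaling to one median, quantile normalization, lowess centring (fraction 0.3), other detection rules, folds of 1.5 and 3, other rules for probe sets and an offset of 50. Python 3.11.15, numpy 2.4.6, pandas 2.3.3, statsmodels 0.14.6 and matplotlib 3.10.9 were used, and the scripts were tested on simulated data. The precision is limited by the number of arrays.

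The members and the 54 gene lists, which share 92 genes, were chosen with earlier results of these data known. Named were the 20 genes with the largest ratio each way among those present on both arrays and past 2-fold under all 4 scalings, the 10 largest bounds each way, up to 6 members of each list by size of ratio, and the genes that the study named. Of these, the ones that a comparison turned on are printed. Other list members were named for their known role after their values were seen, and so were chosen the TATAAA motif and the promoters printed.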

Additional observations from a re-analysis of the deposited data

Results flagged for a closer look

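Probe sets without a single gene symbol took no part in the comparison, and some of them differed by as much. Of 5071 of them called present on at least 1 of the 2 arrays, 204 were over 2-fold higher on the PP2 array with a present call there, and 498 were lower by the same rule. The largest ratio among those present on both arrays was that of probe set 1439906_at, which has no gene symbol, with a signal of 585 on the vehicle and 4265 on the PP2 array, 7.29-fold higher. It had 1097 on the virgin and 5740.0 on the dorsal array. Probe set 1450684_at, which is annotated to more than 1 symbol, had 325 and 2065, 6.36-fold higher. With 1 array a condition these ratios have no error, and which transcripts these probe sets read was not analysed here.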

How the results depend on the processing

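The counts of 515 higher and 659 lower genes moved by less than 1.5 times under the other 3 scalings, with a marginal call counted as present, with a present call required on both arrays, with every detected probe set required and with the mean over probe sets. They became 1349 higher and 1878 lower without a detection filter, 1310 and 1693 at 1.5-fold, 200 and 226 at 3-fold, and 294 and 342 with 50 added to each signal, and 1661 genes were lower when any probe set past 2-fold sufficed. Among the median log2 ratios of 53 lists, the sign differed from the main value in 7 with one median, 9 after quantile normalization, 5 after lowess centring and 4 with the mean over probe sets. These were medians near 0, except that the Wnt target median went from 0.39 to -0.04 with the mean over probe sets. Of 212 named genes, all moved by less than 1.5-fold under each other scaling, and the sign differed for 4 with one median, 3 after lowess centring and 5 after quantile normalization. With the mean over probe sets 16 moved by more and 8 differed in sign. Of those 16, Fgfr1 (0.36), Gadd45b (0.70), Vcan (0.50) and Tln1 (-0.44) then had log2 ratios short of 2-fold. The cause was not tested. The planned composition of the keratin-associated proteins was not run because no protein sequences were at hand. No paired analysis was possible because each condition had 1 array and no shared replicate numbers, and for the same reason no array could be left out. A ratio of 2 arrays has no error, dim signals near the lowest present ones give only bounds, and treatment, mouse and RNA quality cannot be told apart.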

Other observations

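Receptors for hormones and local mediators held differences of both signs. Of 20 detected, 4 were over 2-fold higher on the PP2 array and 2 lower. *Agtr2*, a receptor of angiotensin II, had 84.9 on the vehicle and 455 on the PP2 array, 5.36-fold higher, with 471 on the virgin and 47.0 on the dorsal array. The prostaglandin receptors *Ptger3* (361 and 1329) and *Ptgfr* (283 and 1063) were 3.68-fold and 3.76-fold higher. Another, *Ptger2*, was 4.00-fold lower (112 and 28.0). The oestrogen receptor *Esr1* had 943 and 1862, 1.98-fold higher, and the progesterone receptor *Pgr* 70.1 and 94.2. *Oxtr*, the oxytocin receptor, had 818 and 737, against 264 on the virgin and 186 on the dorsal array, so both abdominal arrays of 15 dpc had higher signals than the other 2.

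Matrix proteases also differed member by member. *Adamts4*, which cuts the large proteoglycans, had 322 and 1402, 4.36-fold higher, and *Adamts1* 2776 and 6317, 2.28-fold higher. Their inhibitors parted, *Timp1* being 2.23-fold higher (198 and 440.0) and *Timp4* 2.90-fold lower (4087 and 1410.1). *Mfap4*, which encodes a protein of elastic fibres, was present on the PP2 array at 999.6 and not on the vehicle array, at least 6.17-fold higher, with 733 on the virgin array. *Tnxb*, which encodes tenascin-X, a fibril-binding protein whose loss makes skin lax, had 2604 and 713, 3.65-fold lower, with 2739.9 on the virgin and 746 on the dorsal array. *Nrarp*, a target and inhibitor of Notch, was 2.80-fold lower (3464 and 1239), the 1 of 18 Notch pathway genes past 2-fold.

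Several further groups, of unequal size, had at most 3 members past 2-fold in either direction, against 3.91% of all genes higher and 5.01% lower. Of 11 sebaceous gland genes, 2 were lower, *Fads2*, a fatty acid desaturase, at 235 and 46.9, and *Acsbg1*, an acyl-CoA synthetase, at 1820.0 and 744. Of 13 small leucine-rich proteoglycans, 3 were higher, *Kera*, *Fmod* and *Omd* (256 and 695), and 0 lower. Of 5 detected mast cell genes, 2 were higher and 0 lower. These were the proteases *Cpa3* and *Cma1*, present on the PP2 array alone of the compared pair, at 418 and 195, at least 3.21-fold and 2.56-fold higher. Of 29 interferon response genes 3 were higher and 0 lower, and of 13 complement genes 1, *Cd55*, a shield against complement, was lower (1024 and 437). *Vegfa*, the growth factor of vessels, was 2.34-fold higher (416 and 974), the 1 of 25 hypoxia and glycolysis genes past 2-fold. Genes of antigen presentation by MHC class II had 0 of 12 past 2-fold, with a median log2 ratio of -0.61, and skeletal muscle genes 0 of 11.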
